A study of Homo sapiens with 6 samples.

Results

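The comparison set sorted cells of 231BoM-1833, a bone-selected derivative of the human breast cancer line MDA-MB-231, against sorted cells of MDA-MB-231 itself. It used the 2 arrays of each line, 4 of the 6 arrays in the series, and every transcript cluster with a gene symbol, 21214 of 33297 clusters. Both lines were cultured, and magnetic sorting with antibodies to CD24, CD44 and ESA (the product of EPCAM) kept the CD24-/CD44+/ESA+ cells, a surface profile used to enrich breast cancer stem cells, so the parental group carries the same selection. The labels name no drug and no genetic change in either line. The other 2 arrays hold sorted cells of 231BrM-2a, a brain-selected derivative of the same parent, and enter below only where they are named and in the estimate of the spread. MDA-MB-231 is a triple-negative line of mesenchymal character, and each derivative is a single selected line, so a difference between lines is a difference between these cell populations and not between tumours or patients. The arrays of a line are labelled as biological replicates, but no label ties them to different cultures or to different sorts. The p-values below therefore cover only how far these arrays spread, and that spread may be technical.

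Breast cancer cells that grow in bone are known to act on osteoclasts, the cells that resorb bone, through secreted cytokines, prostaglandins and proteases, and resorption in turn releases growth factors from the matrix. CXCR4, a chemokine receptor whose ligand is made in marrow, is among the best known genes of bone-seeking derivatives of this line. The genes below are therefore taken in the order of receptors and ligands, matrix and proteases, immune genes, metabolism and the cell cycle.

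Values are log2 expression values from RMA (robust multi-array average, which removes background, puts the arrays on 1 scale and merges the probes of each cluster), so a difference of 1 is a 2-fold difference. A gene was called when limma's moderated test, adjusted by the Benjamini-Hochberg method over the 21214 clusters, gave an adjusted p under 0.05, and log2 changes are 231BoM-1833 minus MDA-MB-231 with their standard error (n = 2 arrays a line). Of the clusters, 15.8% were called. Over the 18418 symbols with a cluster of their own, 1532 were called higher in 231BoM-1833 (8.32%) and 1355 lower (7.36%), and the median change was -0.05. Most calls were small: 2572 of 2887 stayed under 2-fold, and the median size of a called change was 1.47-fold. At 2-fold or more the directions separated, with 266 symbols higher (1.44%) and 49 lower (0.266%), and at 4-fold or more 46 were higher and 6 lower.

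The stability of these calls differed with their size. There were 12 alternative settings, which included leaving out each array in turn. Fitting only the 4 arrays of these lines and leaving out either 231BrM-2a array gave 1 and the same fit, so 10 settings were distinct. Leaving out an array of either compared line leaves 1 array in that group, whose spread is then assumed to be that of the other lines. Under these settings 628 of the 2887 called symbols kept their call and direction wherever they had a value, 441 higher (2.39%) and 187 lower (1.02%). The setting that left out the dimmest 33.3% of clusters gave the removed ones no value. A kept call has this meaning throughout. Of the genes changed at least 2-fold, 230 of 266 higher and 48 of 49 lower ones did so. Leaving out a parental array cost the most calls, with 766 symbols called higher and 362 lower without MDA-MB-231 replicate 1 and 504 higher and 275 lower without replicate 2. The called memberships over all gene lists numbered 333, and 166 without MDA-MB-231 replicate 1 and 135 without replicate 2. A gene written below as rising or falling with no further remark kept its call in all settings that gave it a value. One written only as called did not, and for most of these the adjusted p without the array that ended the call is given beside it. The depth of an array sets no counting error here, and the number of arrays limits the precision.

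Genes with a large rise were mostly dim in the parental cells. The parental mean is itself a term of the change by which these genes were chosen. A lower parental level in risers than in fallers is therefore partly built in. The parental mean lay under the array median for 166 of the 266 genes that rose at least 2-fold (62.4%), for 7 of the 49 that fell at least 2-fold (14.3%) and for 9132 of all 18418 symbols (49.6%). When symbols were ranked by their mean over all 6 arrays and divided into 4 equal parts, 30, 105, 75 and 56 of the 2-fold risers lay in the parts from dimmest to brightest. The 2-fold fallers lay at 1, 10, 21 and 17. Since no background level came with the values, folds of dim genes may be understated.

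The genes of the sort itself did not pass the test. CD44 read 11.87 and 11.86 on the MDA-MB-231 arrays and 12.17 and 11.82 on the 231BoM-1833 arrays, and CD24 read 6.2 and 6.04 on the MDA-MB-231 arrays and 6.49 and 5.76 on the 231BoM-1833 arrays. EPCAM read 8.13 and 7.93 on the MDA-MB-231 arrays and 8.32 and 7.28 on the 231BoM-1833 arrays, so the bone-line arrays lay on either side of the parental pair. The differences were 0.14 ± 0.13 for CD44, 0.00 ± 0.20 for CD24 and -0.23 ± 0.27 for EPCAM. Without 231BoM-1833 replicate 1, EPCAM was called lower (-0.75, adjusted p = 0.011). Of 9 markers of the parental line, 0 lay under the array median on all 4 arrays, and their mean level was 11.68 to 11.72 in MDA-MB-231 and 11.58 to 11.61 in 231BoM-1833. MSN, which links actin to the membrane, was called higher (0.48 ± 0.10), and CAV1, a caveolar coat protein, was called lower (-0.84 ± 0.15), as was KRT18, a simple epithelial keratin (-0.48 ± 0.11). The adjusted p of CAV1 was 0.07 without MDA-MB-231 replicate 2, that of MSN was 0.059 without MDA-MB-231 replicate 1 and 0.099 without MDA-MB-231 replicate 2, and that of KRT18 was 0.11 without MDA-MB-231 replicate 1, 0.08 without MDA-MB-231 replicate 2 and 0.067 without 231BoM-1833 replicate 1.

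Markers of other cells were low: 11 of 14 leukocyte markers, 10 of 11 endothelial, platelet and red cell markers and 9 of 10 stromal and osteoblast markers lay under the array median on all 4 arrays. The summed level, given as the mean per array, was 5.84 to 5.88 in MDA-MB-231 and 5.85 to 5.87 in 231BoM-1833 for leukocyte markers. It was 6.05 to 6.07 against 5.97 to 6.03 for endothelial, platelet and red cell markers, and 5.70 to 5.72 against 5.53 to 5.55 for stromal markers. CD14, a lipopolysaccharide co-receptor best known from monocytes, was the 1 leukocyte marker that rose (7.67 and 7.56 against 8.39 and 8.6, 0.88 ± 0.12), and NKG7 was called lower (-0.37 ± 0.11). The VEGF receptor KDR was called higher (0.44 ± 0.13), and the platelet integrin chain ITGA2B (-0.35 ± 0.10) and the proteoglycan DCN (-0.79 ± 0.16) were called lower. The calls of NKG7, KDR, ITGA2B and DCN were not kept in every setting. The part of these markers in the results was not tested.

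The 15 genes with the largest rise mixed signalling, matrix and germline genes, of which 4 are given here. OTULINL, a relative of the linear ubiquitin hydrolase OTULIN, read 6.87 and 6.35 on the MDA-MB-231 arrays and 9.85 and 9.59 on the 231BoM-1833 arrays, a log2 change of 3.11 ± 0.17 (adjusted p = 1.2e-05). GNGT2, a G protein gamma subunit best known from cone photoreceptors, read 4.50 and 4.18 on the MDA-MB-231 arrays and 6.97 and 7.25 on the 231BoM-1833 arrays, a log2 change of 2.76 ± 0.18 (adjusted p = 4.1e-05). The lines lay over 2 log2 units apart in both genes, and this ranking admitted only genes whose groups do not overlap. MAGEC2, a cancer-testis antigen of the X chromosome, went from 5.41 to 8.04 on average, a log2 change of 2.63 ± 0.14 (adjusted p = 1.2e-05), and MATN2, a filament-forming matrix adaptor, read 6.27 and 6.31 on the MDA-MB-231 arrays and 9.05 and 9.01 on the 231BoM-1833 arrays, a log2 change of 2.74 ± 0.10 (adjusted p = 2.6e-06). MATN2 arrays of a line agreed within 0.1 and the lines differed 6.66-fold.

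The genes with the largest fall included several regulators of signalling. RGCC, a regulator of the cell cycle induced by complement, read 10.16 and 9.01 on the MDA-MB-231 arrays and 7.30 and 6.95 on the 231BoM-1833 arrays, a log2 change of -2.47 ± 0.31 (adjusted p = 0.0014). Its parental arrays differed by more than 1 log2 unit, and both lay above both bone-line arrays, as the rule for this ranking required. RAP1GAP2, which switches off the GTPase RAP1, read 9.11 and 9.06 on the MDA-MB-231 arrays and 7.21 and 7.09 on the 231BoM-1833 arrays, a log2 change of -1.94 ± 0.12 (adjusted p = 3.1e-05). GPR176, an orphan receptor coupled to inhibitory G proteins, read 7.81 and 7.71 on the MDA-MB-231 arrays and 5.94 and 5.75 on the 231BoM-1833 arrays, a log2 change of -1.92 ± 0.11 (adjusted p = 1.7e-05). HHIP, which binds and sequesters Hedgehog ligands, changed by -1.55 ± 0.20 and DAAM2, a formin of Wnt signalling, by -1.83 ± 0.15. The orphan receptor GPRC5B changed by -1.75 ± 0.24. SAMSN1, an adaptor that dampens lymphocyte activation, fell by 1.98 with a wide gap between the bone-line arrays (9.67 and 9.27 against 8.05 and 6.94). XAGE2, a cancer-testis antigen (-1.64 ± 0.13), and PCDHB2, a clustered protocadherin (-1.52 ± 0.18), belong to families of near-identical copies whose probes may be shared.

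**Figure D1:**
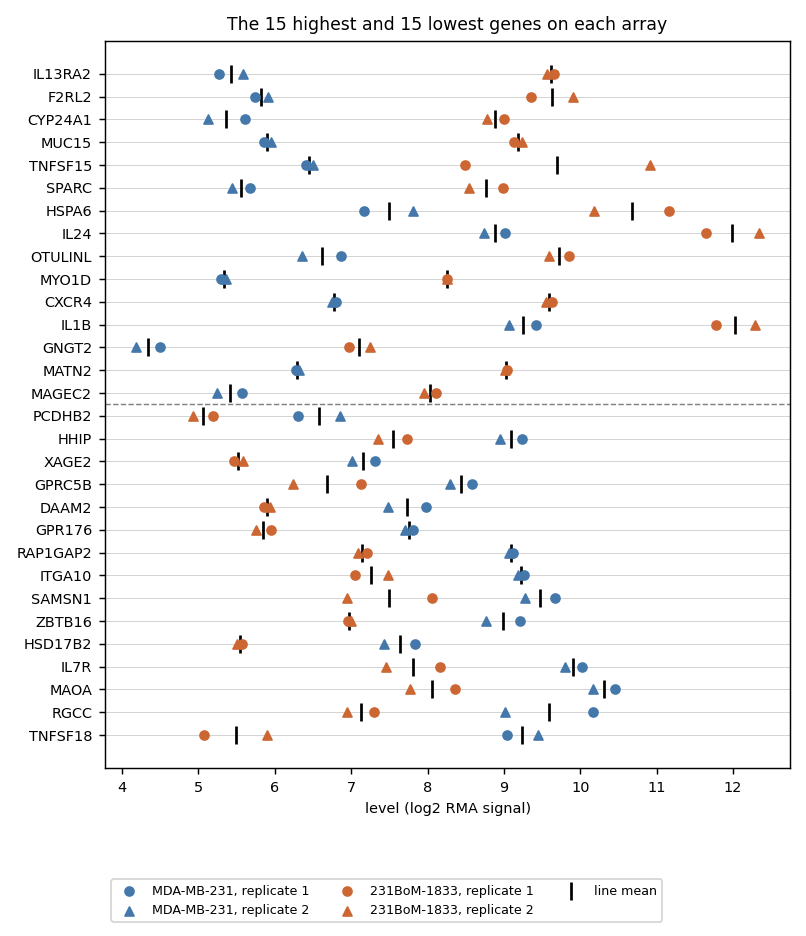
Level of the 15 genes with the largest rise (above the dashed line) and the 15 with the largest fall in 231BoM-1833 among called protein-coding genes whose groups do not overlap, as log2 RMA signal on each of 4 arrays. Circles are replicate 1, triangles replicate 2 and bars the mean of a line; most pairs lie close together, while TNFSF15 differs by 2.42 between the 231BoM-1833 arrays.

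A stricter view asked which genes moved from the dim to the bright part of an array. A gene was counted as gained when it lay under the array median on both MDA-MB-231 arrays and over the 75th percentile on both 231BoM-1833 arrays, and as lost in the reverse case, with no test. The array median over clusters with a symbol was 7.25 to 7.28 and the 75th percentile 8.80 to 8.85 on these 4 arrays. By this rule 11 genes were gained and 2 were lost, and with limits at the 40th and 80th percentile 2 were gained and 0 lost. The gained genes were the receptors IL13RA2, CXCR4 and F2RL2, the mucin MUC15, the class II chain HLA-DPA1, the matrix gene MATN2, OTULINL, and 4 others. EPB41L3, a cortical protein that links membrane receptors to the cytoskeleton, read 6.93 and 7.21 on the MDA-MB-231 arrays and 9.0 and 9.07 on the 231BoM-1833 arrays, a log2 change of 1.96 ± 0.12 (adjusted p = 2.5e-05). FKBP10, a collagen chaperone of the endoplasmic reticulum, read 7.13 and 7.22 on the MDA-MB-231 arrays and 9.25 and 9.21 on the 231BoM-1833 arrays, a log2 change of 2.06 ± 0.13 (adjusted p = 2.5e-05). TC2N, a C2-domain protein, changed by 1.90 ± 0.13 (7.16 and 6.83 against 8.96 and 8.83), and SLCO1B3, an organic anion transporter best known from liver, by 1.93 ± 0.14 (7.01 and 7.21 against 9.20 and 8.88). The lost genes were RAP1GAP2 and TNFSF18, a ligand of the TNF superfamily (9.04 and 9.45 against 5.07 and 5.90, -3.75 ± 0.56). Both were also called lower in 231BrM-2a against the same MDA-MB-231 arrays, RAP1GAP2 at -0.99 and TNFSF18 at -3.36. Of the gained genes, MATN2 (3.07), SLCO1B3 (1.33) and FKBP10 (0.43) were also called higher there. IL13RA2, MUC15, HLA-DPA1, EPB41L3 and TC2N were called lower there, and F2RL2, OTULINL and CXCR4 were not called.

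Promoter sequence was available from RefSeq (GRCh38.p14) for 199 of the 266 genes that rose at least 2-fold, 34 of the 49 that fell at least 2-fold and 14240 of all symbols, as 250 bases before and 50 after the start. Short motifs were searched on both strands in these 300 bases. TATAAA, the TATA box, was found in 31 of 199 risers (15.6%), 5 of 34 fallers (14.7%) and 9.0% of all promoters. TGANTCA, the site of AP-1 dimers of FOS and JUN proteins, was found in 21 risers (10.6%), in 0 of 34 fallers and in 5.58% of all. GAAANNGAA, the core of interferon response elements, was found in 22 risers (11.1%), 2 fallers (5.88%) and 6.83% of all, and GGNNTTTCC, an NF-kappaB site, in 19 (9.55%), 4 (11.8%) and 6.61%. The median number of CpG dinucleotides was 16 in risers, 23.5 in fallers and 23 in all promoters. CCAAT boxes were found in 37.2% of risers, 29.4% of fallers and 36.3% of all, CATTCC (TEAD) in 13.1%, 11.8% and 11.6%, and TGATGNAA (an amino acid response site) in 1.51%, 2.94% and 2.54%. TGACGTCA, the cAMP response site, was found in 2 risers (1.01%), 4 fallers (11.8%) and 2.65% of all. Among all called genes with a promoter, 1239 higher and 1063 lower, the shares were 8.80% and 6.02% for TATAAA, 6.62% and 3.57% for TGANTCA, 8.72% and 5.08% for GAAANNGAA and 7.51% and 5.46% for GGNNTTTCC. They were 40.8% and 31.8% for CCAAT, 12.6% and 8.56% for CATTCC, 2.18% and 1.88% for TGATGNAA and 2.66% and 2.73% for TGACGTCA, and the median number of CpG dinucleotides was 22 and 28. The share of TATAAA was thus above that of all promoters in the 2-fold risers and not in all genes called higher. These shares carry no test, a match is not evidence that a factor binds, and the count of fallers is small.

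The 250 bases before the start are shown for 4 genes that rose and whose promoters hold different combinations of these motifs. Capitals mark matches to the TATA, AP-1, NF-kappaB and interferon response motifs on either strand, and each sequence runs 5′ to 3′ on the strand of its gene:
CXCR4, chr2:136118150-136118399, strand -: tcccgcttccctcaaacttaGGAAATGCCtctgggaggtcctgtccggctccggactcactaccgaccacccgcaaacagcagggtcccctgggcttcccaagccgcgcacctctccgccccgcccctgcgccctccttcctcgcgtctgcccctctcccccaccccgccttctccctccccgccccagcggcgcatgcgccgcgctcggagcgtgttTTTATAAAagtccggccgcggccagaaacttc
IL1A, chr2:112784494-112784743, strand -: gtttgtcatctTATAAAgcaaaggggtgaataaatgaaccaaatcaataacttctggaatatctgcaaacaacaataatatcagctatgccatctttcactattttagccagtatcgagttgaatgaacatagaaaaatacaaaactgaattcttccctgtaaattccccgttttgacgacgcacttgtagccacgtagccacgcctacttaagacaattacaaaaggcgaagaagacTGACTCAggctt
NFKBIZ, chr3:101827740-101827989, strand +: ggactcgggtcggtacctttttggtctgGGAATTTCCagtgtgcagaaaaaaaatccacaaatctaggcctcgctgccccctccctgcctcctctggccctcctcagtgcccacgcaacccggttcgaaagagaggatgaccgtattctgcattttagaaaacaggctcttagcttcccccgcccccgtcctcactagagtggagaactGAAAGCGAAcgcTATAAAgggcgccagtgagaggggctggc
BST2, chr19:17405631-17405880, strand -: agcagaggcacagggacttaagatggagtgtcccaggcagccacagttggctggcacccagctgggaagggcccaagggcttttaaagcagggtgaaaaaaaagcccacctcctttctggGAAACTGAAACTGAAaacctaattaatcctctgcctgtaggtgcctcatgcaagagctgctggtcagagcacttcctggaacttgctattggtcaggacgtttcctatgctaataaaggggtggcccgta
CXCR4 has overlapping TATAAA matches on both strands that begin 32 and 30 bases before the start and a GGNNTTTCC match at 230. IL1A, an interleukin-1 cytokine, has TGANTCA 12 bases before the start, and a further TGANTCA match beginning 39 bases after it, which is not shown. NFKBIZ, an inducible nuclear partner of NF-kappaB, has TATAAA at 29, GAAANNGAA at 41 and GGNNTTTCC at 222 bases before the start. BST2, an interferon-induced protein that tethers virions, has overlapping GAAANNGAA matches at 130 and 124. In the cells, CXCR4 read 6.81 and 6.75 on the MDA-MB-231 arrays and 9.62 and 9.55 on the 231BoM-1833 arrays, and NFKBIZ read 9.49 and 9.53 on the MDA-MB-231 arrays and 10.97 and 10.93 on the 231BoM-1833 arrays. IL1A read 9.37 and 9.57 on the MDA-MB-231 arrays and 11.46 and 11.73 on the 231BoM-1833 arrays, and BST2 read 7.84 and 7.66 on the MDA-MB-231 arrays and 9.55 and 9.64 on the 231BoM-1833 arrays. The changes were 2.81 ± 0.15, 1.44 ± 0.13, 2.13 ± 0.17 and 1.84 ± 0.12. The 4 genes were chosen from those that rose, so the gap between their arrays is no separate evidence.

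Surface receptors come first. For G protein-coupled receptors, 9 of 34 measured members were called higher and 3 lower (median log2 change -0.04), of which 4 and 0 kept their call in every setting, beside 8.32% and 7.36% of all symbols. Below F2RL2 and CXCR4, the endothelin receptor EDNRB (5.31 and 5.06 against 6.13 and 5.94, 0.85 ± 0.13) and the oxytocin receptor OXTR (6.64 and 6.53 against 7.54 and 7.32, 0.85 ± 0.13) rose. ADORA2B, the low-affinity adenosine receptor, was called at 0.68 ± 0.12, with an adjusted p of 0.071 without MDA-MB-231 replicate 2. Cytokine receptors gave a mixed picture: 5 of 38 measured members were called higher and 2 lower (median log2 change -0.04). CSF2RA, the GM-CSF receptor alpha chain, rose (6.32 and 6.31 against 7.26 and 7.41, 1.01 ± 0.12), next to the larger rise of IL13RA2, a decoy receptor of interleukin 13 (4.19 ± 0.14), and a fall of the interleukin 7 receptor IL7R (-2.10 ± 0.20).

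Receptor tyrosine kinases had 6 of 40 called higher and 5 lower, and 0 of them reached 2-fold in either direction. FLT1, a VEGF receptor, rose from a dim level (4.64 and 4.72 against 5.42 and 5.33, 0.70 ± 0.10). TIE1, an endothelial kinase (7.67 and 7.81 against 6.84 and 6.94, -0.86 ± 0.12), and ROR1, a Wnt5A receptor (8.76 and 8.72 against 8.12 and 7.92, -0.72 ± 0.12), fell. Growth factors of several families were called in 3 cases higher and 3 lower of 41, close to the background, although single members moved far. FGF5 read 8.14 and 8.32 on the MDA-MB-231 arrays and 10.69 and 9.90 on the 231BoM-1833 arrays, a log2 change of 2.06 ± 0.25 (adjusted p = 0.0012). Of the EGF-family ligands, HBEGF rose (10.28 and 10.38 against 11.93 and 11.49, 1.38 ± 0.15) and EREG fell (10.46 and 10.03 against 8.96 and 8.55, -1.49 ± 0.21), while TGFA, BTC and NRG1 were not called. The platelet-derived growth factor chain PDGFA fell by 0.75. The growth factors and receptor tyrosine kinases given with values were chosen for their called changes, so the gap between their arrays is no separate evidence.

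Genes that answer or damp the ERK kinase pathway were called higher in 8 of 30 cases and lower in 4 (median 0.25, all symbols -0.05), with 6 and 1 kept. JUN, an AP-1 subunit, read 10.11 and 10.19 on the MDA-MB-231 arrays and 11.27 and 11.30 on the 231BoM-1833 arrays, a log2 change of 1.14 ± 0.11 (adjusted p = 0.00039). IER3 and IER2, immediate early genes, rose by 1.12 and 0.87, and SPRY2, a feedback inhibitor of receptor kinases, by 0.82. Of the phosphatases that act on MAP kinases, DUSP10 rose (0.95 ± 0.13) and DUSP7 fell (-0.86 ± 0.10). DUSP5 was called higher and SPRY4 and ETV4 were called lower, though not in every setting. DUSP1, DUSP2, DUSP4, DUSP6, SPRY1, ETV5, EGR1 and FOSL1 were among the members not called. MYC was called lower at -0.54 ± 0.10 (12.61 and 12.68 against 12.13 and 12.06), and its adjusted p was 0.08 without MDA-MB-231 replicate 2.

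Genes that signal to osteoclasts or are reported in that role were called higher in 10 of 28 cases and lower in 5, with a median of 0.32, and 4 and 1 kept. The members called higher include TNFRSF11B (osteoprotegerin), a decoy receptor that blocks RANKL and so inhibits osteoclasts, which was picked out after its values were seen (0.69 ± 0.12, adjusted p 0.056 without MDA-MB-231 replicate 1), and the BMP antagonist NOG (0.65 ± 0.11, adjusted p 0.054 without MDA-MB-231 replicate 1). Those kept were IL1B, IL1A, PTGS2 and CXCL1 on the higher side and EREG on the lower. PTGS2, the inducible cyclooxygenase that makes prostaglandin H2, read 8.09 and 8.06 on the MDA-MB-231 arrays and 10.34 and 10.20 on the 231BoM-1833 arrays, a log2 change of 2.2 ± 0.26 (adjusted p = 0.0011). CXCL1, a neutrophil chemokine, rose by 0.86 from an already bright mean of 11.05 to 11.91. The main osteoclast cytokine TNFSF11 (RANKL) was dim with no called change (4.51 and 4.73 against 4.40 and 4.84, adjusted p = 0.996), and IL6 (0.30 ± 0.23) and IL11 (0.13 ± 0.16) did not pass the test. IL6 was called higher without 231BoM-1833 replicate 2 (0.73, adjusted p = 0.012). The Wnt inhibitor DKK1, which blocks osteoblasts, was called lower at -0.55 ± 0.11 and TGFB1 at -0.51 ± 0.11. Their adjusted p was 0.08 without MDA-MB-231 replicate 1 and 0.053 without MDA-MB-231 replicate 2 for DKK1, and 0.099 without MDA-MB-231 replicate 1, 0.064 without MDA-MB-231 replicate 2 and 0.052 without 231BoM-1833 replicate 2 for TGFB1.

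Genes of osteoblasts and bone matrix were called higher in 4 of 27 cases and lower in 2, their median was -0.15, and SPARC alone kept its call. SPARC, a collagen-binding glycoprotein abundant in bone, read 5.68 and 5.44 on the MDA-MB-231 arrays and 8.99 and 8.55 on the 231BoM-1833 arrays, a log2 change of 3.21 ± 0.26 (adjusted p = 0.00014). SPP1 (osteopontin) was dim (4.64 and 4.75 against 4.45 and 4.64) with a change of -0.15 ± 0.11 that did not pass. Of 11 measured genes reported high in bone-seeking derivatives of this line, a list drawn from work on the same line and so not independent evidence, 4 were called higher and 1 lower. Of those called higher, CXCR4 and FGF5 kept their call. The 1 member called lower fell at least 2-fold and also kept its call. MMP1, the interstitial collagenase of that list, read 12.64 and 12.75 on the MDA-MB-231 arrays and 13.57 and 14.15 on the 231BoM-1833 arrays. The MMP1 arrays did not overlap and the change was 1.17 ± 0.39. The adjusted p was 0.073 with all 6 arrays and 0.0071 with the 4 arrays of these lines alone. The 231BrM-2a arrays of MMP1, which enter the estimate of the spread, read 7.67 and 6.18.

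Of 29 measured prostaglandin genes, PTGS2 included, 4 were called higher (13.8%) and 3 lower (10.3%), beside 8.32% and 7.36% of all symbols. Their median log2 change was -0.12. PTGFR, the receptor of prostaglandin F2 alpha, rose from a dim level (4.95 and 4.86 against 6.44 and 6.56, 1.60 ± 0.13), and PTGR2, which inactivates 15-keto-prostaglandins, fell (9.63 and 9.52 against 8.80 and 8.80, -0.78 ± 0.10). PLA2G4A, which frees arachidonate, was called higher at 0.96 ± 0.27, with an adjusted p of 0.066 without MDA-MB-231 replicate 1, 0.24 without MDA-MB-231 replicate 2, 0.099 without 231BoM-1833 replicate 1 and 0.11 without 231BoM-1833 replicate 2.

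Matrix genes differed by kind. For matricellular proteins and matrix glycoproteins, 11 of 40 measured members were called higher and 5 lower (median log2 change -0.04), and 9 and 0 kept, whereas for collagens 1 of 26 was called higher and 6 lower (median -0.19; 0 and 3 kept). TNC, tenascin C, read 8.02 and 8.19 on the MDA-MB-231 arrays and 9.97 and 10.73 on the 231BoM-1833 arrays, a log2 change of 2.25 ± 0.21 (adjusted p = 0.00033). THBS2, a thrombospondin, read 6.23 and 6.26 on the MDA-MB-231 arrays and 8.18 and 8.35 on the 231BoM-1833 arrays, a log2 change of 2.03 ± 0.11 (adjusted p = 1.2e-05). SRPX2 and the lysyl oxidase LOXL4 rose by 1.34 and 1.31. The basement membrane chains COL4A1 (8.39 and 8.20 against 7.60 and 7.25, -0.87 ± 0.14) and COL4A2 (9.03 and 8.89 against 8.15 and 8.19, -0.80 ± 0.10) fell, and so did COL6A3 (7.79 and 8.14 against 7.07 and 6.89, -0.98 ± 0.14). COL4A1 and COL4A2 are neighbours in the genome and lay with IRS2 and RAB20 in a run of 4 genes all called lower. COL6A1 was called lower at -0.72 ± 0.12, with an adjusted p of 0.053 without MDA-MB-231 replicate 2.

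Of 31 chains of laminins and of integrins, the receptors of the matrix, 3 were called higher (9.68%) and 6 lower (19.4%). Of all symbols, 8.32% were called higher and 7.36% lower. ITGA6, a laminin-binding alpha chain, rose (11.55 and 11.51 against 12.21 and 12.44, 0.80 ± 0.12). The collagen-binding chain ITGA10 (9.26 and 9.18 against 7.04 and 7.48, -1.96 ± 0.15) and ITGB2, the beta chain of leukocyte integrins (9.08 and 9.03 against 7.71 and 7.41, -1.50 ± 0.12), fell.

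Among proteases of the matrix and their inhibitors, 12 of 39 measured members were called higher and 2 lower (median log2 change 0.15), of which 4 and 1 kept. The urokinase PLAU (9.21 and 9.41 against 10.72 and 10.35, 1.23 ± 0.14), its receptor PLAUR (10.24 and 10.10 against 11.52 and 11.37, 1.27 ± 0.12) and the lysosomal cysteine protease CTSS (7.19 and 6.86 against 9.0 and 8.72, 1.83 ± 0.16) rose together. The metalloprotease inhibitors did not move together: TIMP1 was called higher, though not in every setting, and TIMP2 was not called. TIMP3 changed by 1.11 ± 0.18 (7.66 and 7.82 against 9.15 and 8.56) and TIMP4 by -1.16 ± 0.11 (7.83 and 7.73 against 6.60 and 6.65). CTSK, the main collagenase of osteoclasts, was called higher at 0.71 ± 0.15 from a dim level, with an adjusted p of 0.091 without MDA-MB-231 replicate 2.

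Of 37 measured epithelial genes, 9 were called higher (24.3%) and 3 lower (8.11%), beside 8.32% and 7.36% of all symbols. Their median was -0.05, and 2 and 1 kept. EHF, an epithelial ETS factor, read 9.16 and 9.36 on the MDA-MB-231 arrays and 10.84 and 10.83 on the 231BoM-1833 arrays, a log2 change of 1.58 ± 0.11 (adjusted p = 5.7e-05). CLDN4, a tight junction protein, rose (7.07 and 6.97 against 7.91 and 7.68, 0.78 ± 0.12), and KRT7, a simple epithelial keratin, fell (10.52 and 10.31 against 9.06 and 8.88, -1.45 ± 0.12). CLDN1 was called higher at 1.08 ± 0.19, with an adjusted p of 0.059 without MDA-MB-231 replicate 2. E-cadherin CDH1 was dim in both lines (5.25 and 5.33 against 5.19 and 5.30).

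Mesenchymal genes were called 6 higher and 6 lower of 28, with a median of -0.0026. The repressor ZEB2 rose (7.05 and 6.94 against 7.95 and 7.67, 0.81 ± 0.13), as did TCF4, an E protein (4.98 and 5.06 against 5.94 and 5.92, 0.91 ± 0.11), while ZEB1, the relative of ZEB2, was called lower (9.56 and 9.47 against 9.14 and 9.0, -0.44 ± 0.11). The adjusted p of ZEB1 was 0.12 without MDA-MB-231 replicate 1, 0.094 without MDA-MB-231 replicate 2 and 0.085 without 231BoM-1833 replicate 2. Vimentin (VIM) was bright in both lines (12.68 and 12.70 against 12.91 and 12.92) and did not pass the test.

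Regulators of actin and unconventional myosins were called higher in 7 of 29 cases and lower in 2, with 4 and 0 kept. MYO1D, a membrane-bound class I myosin, read 5.29 and 5.37 on the MDA-MB-231 arrays and 8.26 and 8.25 on the 231BoM-1833 arrays, a log2 change of 2.92 ± 0.10 (adjusted p = 2.4e-06). LCP1, an actin-bundling plastin of leukocytes that many carcinoma cells also make, read 7.47 and 7.28 on the MDA-MB-231 arrays and 9.55 and 8.63 on the 231BoM-1833 arrays, a log2 change of 1.72 ± 0.24 (adjusted p = 0.0025). Of 38 axon guidance genes, 3 were called higher and 5 lower. The secreted cues SEMA3E (5.11 and 5.28 against 6.67 and 6.09, 1.18 ± 0.17) and SLIT2 (8.58 and 8.63 against 9.51 and 9.30, 0.80 ± 0.12) rose, and the plexin receptors PLXNA1 (-0.76 ± 0.10) and PLXNA2 (-0.98 ± 0.16) and the ligand EFNA5 (-0.80 ± 0.11) fell.

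**Figure D2:**
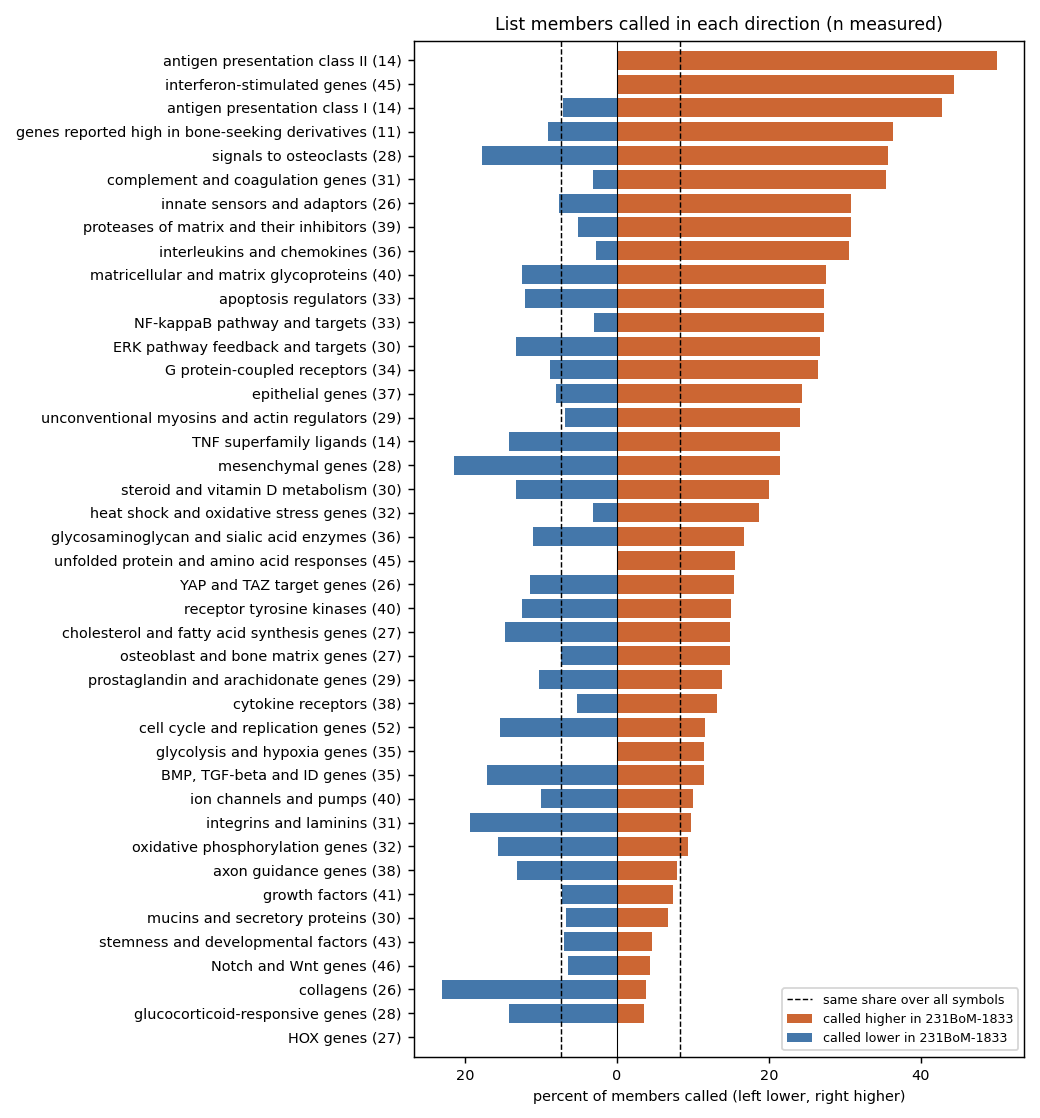
Percent of the measured members of 42 gene lists that were called higher (orange, to the right) or lower (blue, to the left) in 231BoM-1833, with the number measured in brackets; dashed lines give the shares over all symbols, 8.32% and 7.36%. The class II, interferon and class I lists lie at the top with 7 of 14, 20 of 45 and 6 of 14 members called higher, and the collagen list has the largest share called lower, 6 of 26. The lists were chosen with earlier results of these data known.

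Immune genes formed the lists with the largest share called higher. The lists were chosen with earlier results of these data known, and some genes stand in several lists. This ranking is therefore a description and no separate evidence. For class II antigen presentation, 7 of 14 measured members were called higher and 0 lower (median log2 change 0.41), of which 5 kept. The HLA-DM chains, which load peptides, read 7.77 and 7.80 against 9.60 and 9.68 for HLA-DMA (1.86 ± 0.10) and 6.42 and 6.76 against 8.29 and 8.97 for HLA-DMB (2.04 ± 0.20). HLA-DPB1 read 6.33 and 6.22 against 7.93 and 8.47 (1.92 ± 0.16) and its partner HLA-DPA1 7.23 and 7.03 against 9.40 and 9.61 (2.38 ± 0.12). Classical HLA genes have near copies, so a part of these signals may be shared. CIITA, the master activator of class II transcription, did not pass the test (6.48 and 6.74 against 6.56 and 6.77, 0.05 ± 0.13, adjusted p = 0.8).

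For class I antigen presentation, 6 of 14 measured members were called higher and 1 lower (median log2 change 0.42), and 2 and 0 kept. The immunoproteasome subunits PSMB8 (8.76 and 8.86 against 10.05 and 9.87, 1.15 ± 0.12) and PSMB9 (9.38 and 9.25 against 10.41 and 10.27, 1.03 ± 0.11) rose, and the third inducible subunit PSMB10 was called lower at -0.49 ± 0.14, with an adjusted p of 0.22 without MDA-MB-231 replicate 1, 0.091 without MDA-MB-231 replicate 2 and 0.16 without 231BoM-1833 replicate 1. Among interferon-stimulated genes, 20 of 45 measured members were called higher and 0 lower (median log2 change 0.41), and 11 kept. TNFSF10, the death ligand TRAIL, read 5.26 and 4.91 on the MDA-MB-231 arrays and 7.37 and 7.14 on the 231BoM-1833 arrays, a log2 change of 2.18 ± 0.14 (adjusted p = 3.1e-05). The antiviral genes TRIM22 (6.48 and 6.03 against 7.69 and 7.85, 1.52 ± 0.15), GBP2 (5.52 and 5.72 against 7.17 and 6.99, 1.46 ± 0.15), IFI6 (7.70 and 7.56 against 9.06 and 8.95, 1.37 ± 0.11) and IFI27 (7.07 and 7.07 against 8.34 and 8.29, 1.24 ± 0.10) rose with arrays of a line within 0.5 of each other. The 25 members of the interferon list that were not called included IFIT1, IFIT2, IFIT3, ISG15, MX1, OAS1, OAS2 and RSAD2.

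The innate sensors and adaptors gave 8 higher and 2 lower of 26. AIM2, a sensor of cytosolic DNA, rose (6.11 and 5.93 against 7.25 and 6.85, 1.03 ± 0.15), and TLR4, the lipopolysaccharide receptor that works with CD14, fell (10.49 and 10.54 against 9.16 and 9.31, -1.28 ± 0.11). CD14 and TLR4 thus moved in opposite directions.

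The NF-kappaB list had 9 members called higher and 1 lower of 33, of which 3 and 0 kept. The subunits NFKB1 (0.43 ± 0.17) and RELA (0.00 ± 0.10) did not pass. NFKB1 was called higher without 231BoM-1833 replicate 2 (0.71, adjusted p = 0.014), and the number of members called higher was then 16. It was 6 without replicate 1, when 4 were called lower, and 4 without either MDA-MB-231 array. This list also differed between the 2 bone-line arrays, with a median of 0.32 for replicate 1 minus replicate 2 against 0.00 for all symbols. CCL20, a chemokine of the list, read 8.46 and 8.01 on the MDA-MB-231 arrays and 11.45 and 9.82 on the 231BoM-1833 arrays. It was called at 2.40 ± 0.46, with an adjusted p of 0.089 without MDA-MB-231 replicate 2. TRAF1 was called at 1.06 ± 0.20, with an adjusted p of 0.053 without MDA-MB-231 replicate 1 and 0.082 without MDA-MB-231 replicate 2.

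Of interleukins and chemokines, 11 of 36 were called higher and 1 lower, with 5 and 0 kept. IL18, an interferon-gamma-inducing member of the interleukin-1 family, read 7.77 and 7.73 on the MDA-MB-231 arrays and 9.57 and 9.17 on the 231BoM-1833 arrays, a log2 change of 1.62 ± 0.14 (adjusted p = 0.00022). Of 14 TNF superfamily ligands, 3 were called higher and 2 lower, with 2 and 1 kept. TNFSF4 (OX40 ligand) rose (5.29 and 5.23 against 7.12 and 7.28, 1.94 ± 0.11). TNFSF15, which acts on endothelium and T cells, read 6.41 and 6.50 on the MDA-MB-231 arrays and 8.49 and 10.91 on the 231BoM-1833 arrays. TNFSF15 was called at 3.25 ± 0.59, and its adjusted p was 0.055 without MDA-MB-231 replicate 1 and 0.062 without MDA-MB-231 replicate 2.

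Complement and coagulation genes were called higher in 11 of 31 cases and lower in 1, of which 3 and 1 kept. Tissue factor F3 (10.02 and 10.16 against 10.93 and 10.80, 0.78 ± 0.11) and the complement regulator C4BPB (6.29 and 5.69 against 7.21 and 6.94, 1.08 ± 0.19) rose, while the central complement protein C3 fell (10.37 and 10.22 against 9.37 and 9.42, -0.90 ± 0.11). CFB, the factor that pairs with C3 in the alternative pathway, was called higher at 0.94 ± 0.16, with an adjusted p of 0.06 without MDA-MB-231 replicate 2.

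Enzymes of steroid and vitamin D metabolism included some of the largest single changes, although the list as a whole had 6 higher and 4 lower of 30. CYP24A1, which degrades active vitamin D, read 5.61 and 5.12 on the MDA-MB-231 arrays and 9.0 and 8.77 on the 231BoM-1833 arrays, a log2 change of 3.52 ± 0.26 (adjusted p = 8.7e-05), while its regulator, the vitamin D receptor VDR, did not pass (7.06 and 7.14 against 6.78 and 7.16, -0.13 ± 0.14). HSD11B1, which regenerates cortisol, rose from a dim level (6.04 and 5.66 against 7.16 and 7.18, 1.32 ± 0.13), and HSD17B2, which inactivates estradiol and testosterone, fell to one (7.84 and 7.43 against 5.57 and 5.51, -2.10 ± 0.15). CYP1B1, an estrogen hydroxylase, rose by 1.03. Of genes that answer to glucocorticoids, 1 of 28 was called higher and 4 lower. The monoamine oxidase MAOA (10.46 and 10.17 against 8.36 and 7.77, -2.25 ± 0.18), the zinc finger factor ZBTB16 (9.21 and 8.76 against 6.96 and 6.99, -2.01 ± 0.16) and the protease inhibitor SERPINA3 (6.33 and 6.51 against 5.24 and 5.53, -1.04 ± 0.13) fell. The median difference between the bone-line arrays was 0.36 for this list, replicate 1 being the higher.

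Of 27 cholesterol and fatty acid genes, 4 were called in each direction. The sterol transfer protein STARD4 (9.04 and 8.65 against 10.20 and 10.26, 1.38 ± 0.14) and SC5D, a desaturase of sterol synthesis (8.08 and 8.11 against 9.05 and 8.73, 0.79 ± 0.13) rose. FASN, the fatty acid synthase, fell (9.51 and 9.44 against 8.84 and 8.64, -0.74 ± 0.11), and ACACA and ACSS2, which supply it, were called lower at -0.64 ± 0.12 and -0.64 ± 0.11. The adjusted p of ACACA was 0.061 without MDA-MB-231 replicate 1 and 0.059 without MDA-MB-231 replicate 2, and that of ACSS2 was 0.052 without MDA-MB-231 replicate 1. The other called members, TM7SF2 and ELOVL6 on the higher side and CYP51A1 on the lower, did not keep their call in every setting.

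Oxidative phosphorylation genes were called 3 higher and 5 lower of 32, and COX7B alone kept its call (8.63 and 8.42 against 9.81 and 9.41, 1.08 ± 0.16). Glycolysis and hypoxia genes had 4 of 35 called higher and 0 lower, with a median of -0.06. STC1, a glycoprotein hormone induced by low oxygen, rose by 1.61 (9.42 and 9.16 against 10.96 and 10.84).

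Stress genes were uneven between arrays. For genes of the unfolded protein response and of amino acid shortage, 7 of 45 measured members were called higher and 0 lower (median log2 change 0.27), and 1 kept: DDIT3 (CHOP), the factor that links this stress to cell death, read 8.66 and 7.90 on the MDA-MB-231 arrays and 10.73 and 10.32 on the 231BoM-1833 arrays, a log2 change of 2.24 ± 0.32 (adjusted p = 0.0026). The list stood higher on replicate 2 of 231BoM-1833, with a median of -0.33 for replicate 1 minus 2. Without replicate 1, 17 members were called higher, without replicate 2 there were 5, and without MDA-MB-231 replicate 1 or 2 there were 3 and 2. HSPA5 (BiP), its main chaperone, was called at 0.81 ± 0.20, with an adjusted p of 0.17 without MDA-MB-231 replicate 2 and 0.1 without 231BoM-1833 replicate 2. Among heat shock and oxidative stress genes, 6 of 32 were called higher and 1 lower, and the metallothionein MT1F kept its call (9.12 and 9.01 against 9.98 and 10.16, 1.00 ± 0.13). HSPA6, a strictly inducible HSP70, read 7.17 and 7.81 on the MDA-MB-231 arrays and 11.16 and 10.18 on the 231BoM-1833 arrays. It was called at 3.18 ± 0.61, with an adjusted p of 0.073 without MDA-MB-231 replicate 1 and 0.051 without MDA-MB-231 replicate 2. Apoptosis regulators had 9 called higher and 4 lower of 33, all under 2-fold, and 0 kept their call in every setting.

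The cell cycle list was called 6 higher and 8 lower of 52, and the called genes were divided by the phase in which they act after the values were seen. Of 22 genes of DNA replication and entry into S phase, 0 were called higher and 8 lower (median -0.31). Of 27 genes of mitosis, 6 were called higher and 0 lower (median 0.25). The 8 lower genes were the helicase parts MCM2, MCM3, MCM4, MCM5 and MCM10, the sliding clamp PCNA, GINS2 and the phosphatase CDC25A. The 6 higher ones were CENPF, a kinetochore protein, BUB1, PTTG1, UBE2C, MKI67 and TOP2A. PCNA read 10.79 and 10.85 on the MDA-MB-231 arrays and 10.43 and 9.71 on the 231BoM-1833 arrays, with a change of -0.75 ± 0.20, and CENPF read 9.56 and 9.44 on the MDA-MB-231 arrays and 10.55 and 10.28 on the 231BoM-1833 arrays, a log2 change of 0.91 ± 0.12 (adjusted p = 0.002).

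Of these 14 genes, CENPF alone kept its call in all settings. The adjusted p of PCNA was 0.11 without MDA-MB-231 replicate 1, 0.16 without MDA-MB-231 replicate 2 and 0.073 without 231BoM-1833 replicate 2, and that of MKI67 was 0.11 without MDA-MB-231 replicate 1, 0.18 without MDA-MB-231 replicate 2 and 0.13 without 231BoM-1833 replicate 1. The bone-line arrays themselves differed in this list. All 27 mitosis genes and 19 of the 22 replication genes were higher on replicate 1, with median differences of 0.41 and 0.33. Without replicate 1 the whole list had 1 member called higher and 10 lower, and without replicate 2 it had 13 higher and 0 lower. Without either MDA-MB-231 array, and with clusters that lack a symbol tested too, 1 was called higher and 0 lower. MCM3 read 10.53 and 10.48 against 10.04 and 9.56 (adjusted p 0.087 without MDA-MB-231 replicate 1, 0.094 without MDA-MB-231 replicate 2 and 0.052 without 231BoM-1833 replicate 2), and BUB1 read 10.15 and 10.02 against 10.77 and 10.53 (adjusted p 0.069 without MDA-MB-231 replicate 1, 0.15 without MDA-MB-231 replicate 2 and 0.083 without 231BoM-1833 replicate 1).

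**Figure D3:**
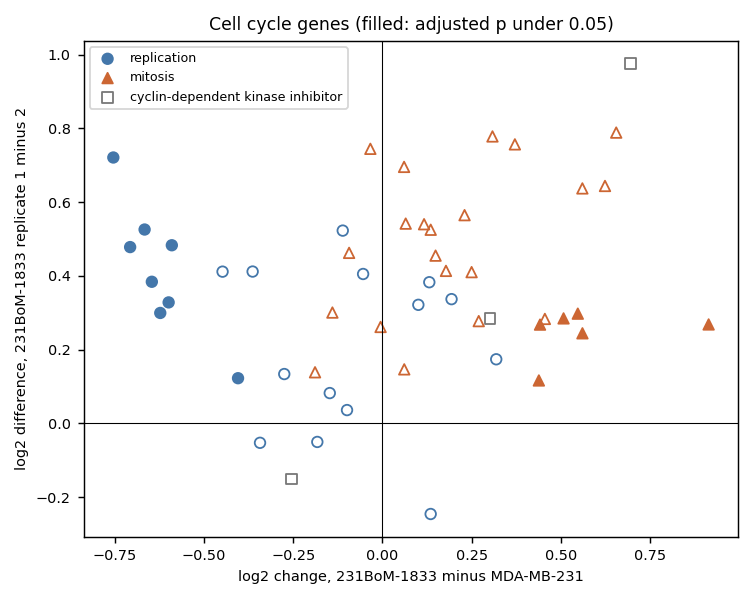
Each of 52 cell cycle genes by its log2 change between the lines (horizontal axis) and by the log2 difference between the 231BoM-1833 arrays (vertical axis). Circles are replication genes, triangles mitosis genes and squares kinase inhibitors, filled where called; the 8 filled circles lie left of 0, the 6 filled triangles right of it, and all 27 triangles lie above 0 on the vertical axis.

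Notch, Wnt and stemness lists gave few calls, with shares called lower near the 7.36% of all symbols and shares called higher under the 8.32%. Of 46 Notch and Wnt genes, 2 were called higher (4.35%) and 3 lower (6.52%), and 0 kept. Of 43 stemness and developmental factors, 2 were called higher (4.65%) and 3 lower (6.98%). The Krüppel-like factors KLF8 (5.10 and 4.62 against 6.18 and 6.14, 1.30 ± 0.15) and KLF13 (8.44 and 8.49 against 7.78 and 7.69, -0.73 ± 0.10) went opposite ways, and KLF4 did not pass (9.53 and 9.83 against 9.52 and 10.01, 0.09 ± 0.17). Of the 27 HOX genes, which hold positional identity, HOXD12 had the largest difference at -0.42 ± 0.18, which did not pass (adjusted p = 0.15) and was called without 231BoM-1833 replicate 1 (-0.66, adjusted p = 0.043). Of 26 YAP and TAZ targets, 4 were called higher and 3 lower, and CCN2, the best known of them, was called at 0.68 ± 0.13 with an adjusted p of 0.091 without MDA-MB-231 replicate 2.

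Of 35 BMP, TGF-beta and ID genes, 4 were called higher and 6 lower. SMURF2, a ubiquitin ligase that removes TGF-beta receptors and SMADs, rose (11.34 and 11.52 against 12.08 and 12.22, 0.72 ± 0.12), and LTBP1, which stores latent TGF-beta in the matrix, fell (11.53 and 11.39 against 10.25 and 10.48, -1.10 ± 0.14). BAMBI, a decoy receptor of the family, was called higher at 1.08 ± 0.19, with an adjusted p of 0.072 without MDA-MB-231 replicate 2.

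At the cell surface, glycan enzymes were called 6 higher and 4 lower of 36. ST8SIA4, a polysialyltransferase (7.30 and 6.87 against 8.58 and 8.6, 1.51 ± 0.14), and ST3GAL6, which caps selectin ligands (7.39 and 7.62 against 8.80 and 8.66, 1.22 ± 0.12), rose, and the chondroitin sulfotransferase CHST15 fell (8.71 and 8.70 against 8.0 and 7.84, -0.79 ± 0.11). The hyaluronan synthase HAS2 read 10.60 and 10.85 on the MDA-MB-231 arrays and 10.47 and 9.87 on the 231BoM-1833 arrays; its change of -0.55 ± 0.19 did not pass (adjusted p = 0.076), and it was called without 231BoM-1833 replicate 1 (adjusted p = 0.011). Mucins and secretory proteins had 2 called in each direction of 30, near the background. MUC15, a membrane mucin, read 5.85 and 5.94 on the MDA-MB-231 arrays and 9.13 and 9.24 on the 231BoM-1833 arrays, a log2 change of 3.29 ± 0.11 (adjusted p = 2.4e-06).

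Ion channels and pumps were called 4 in each direction of 40, also near the background, with several large single changes. The potassium channel KCNK1 (6.68 and 6.70 against 8.65 and 8.20, 1.74 ± 0.16) and the sodium pump beta chain ATP1B1 (10.19 and 10.20 against 11.33 and 10.88, 0.92 ± 0.15) rose. The epithelial sodium channel chain SCNN1A (7.14 and 7.38 against 6.07 and 6.16, -1.14 ± 0.12) and the GABA receptor chain GABRA3 (6.13 and 6.24 against 4.57 and 4.91, -1.44 ± 0.14) fell.

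The 2 bone-line arrays differed from each other more than those of the other lines. Between replicates, 37 symbols differed at least 2-fold in 231BoM-1833, 19 higher on replicate 1 and 18 on replicate 2, against 4 between the MDA-MB-231 arrays and 14 between those of 231BrM-2a, and the SD of the difference was 0.24 against 0.19 in both. The 10 protein-coding genes furthest up on replicate 1 included the NF-kappaB inhibitor TNFAIP3 (9.45 and 9.44 against 10.01 and 8.88), the chemokines CCL20 and CCL2, the co-chaperones CHORDC1 and DNAJB4 and the thioredoxin inhibitor TXNIP (13.14 and 13.60 against 13.01 and 11.40). Those furthest up on replicate 2 included the secretory proteins AGR2 (4.77 and 5.55 against 5.90 and 8.04) and LCN2 (7.57 and 7.11 against 8.54 and 10.04), the endoplasmic reticulum proteins FICD and SDF2L1, and the stress cytokine GDF15 (7.39 and 8.10 against 8.06 and 9.23). EDN1, endothelin 1, read 10.15 and 10.04 against 9.75 and 8.52 and did not pass the test (adjusted p = 0.065). It was called lower with the replicate number as a block (adjusted p = 0.042) and without 231BoM-1833 replicate 1 (-1.58, adjusted p = 0.00027). AGR2 (adjusted p = 0.053) and LCN2 (adjusted p = 0.055) did not pass either. AGR2 was called with the replicate block (adjusted p = 0.012) and without 231BoM-1833 replicate 1 (adjusted p = 0.00075). LCN2 was called with the 4 arrays of these lines alone (adjusted p = 0.02), with dim clusters left out (adjusted p = 0.046) and without 231BoM-1833 replicate 1 (adjusted p = 0.026). FICD (1.5, adjusted p = 0.02), SDF2L1 (1.46, adjusted p = 0.028) and GDF15 (1.48, adjusted p = 0.014) were called higher without replicate 1. TXNIP (-1.97, adjusted p = 0.00082), CHORDC1 (-0.80, adjusted p = 0.022) and DNAJB4 (-0.72, adjusted p = 0.027) were called lower without it, and CCL2 was called higher without replicate 2 (1.05, adjusted p = 0.0041). TNFAIP3 was called lower without replicate 1 (-0.56, adjusted p = 0.037) and higher without replicate 2 (0.57, adjusted p = 0.04). TNFSF15 had the widest gap, 2.42. The part of this array difference in the gene lists above was not tested.

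**Figure D4:**
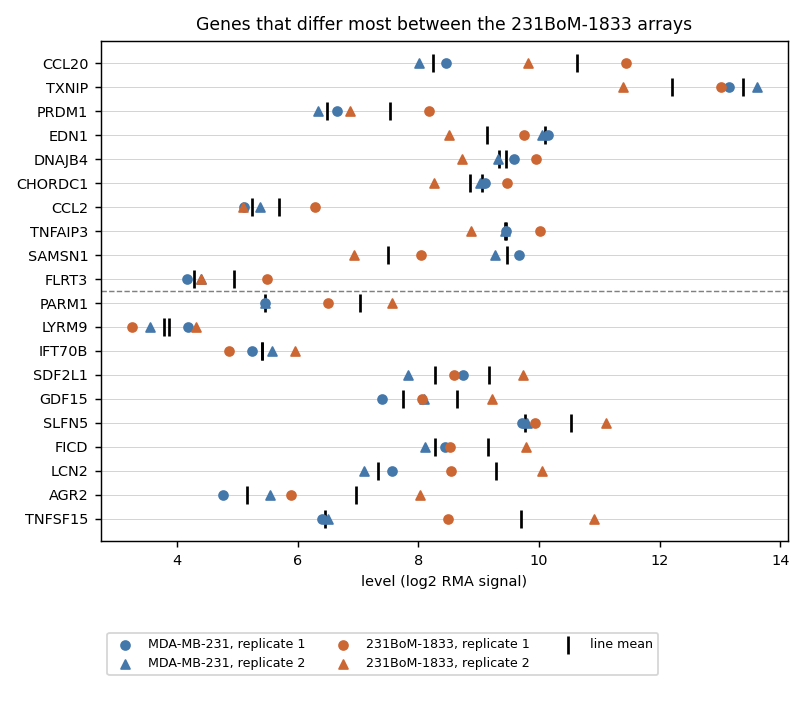
Level on 4 arrays (log2 RMA signal) of the 10 protein-coding genes furthest higher on 231BoM-1833 replicate 1 (above the dashed line) and the 10 furthest higher on replicate 2. The orange circle and triangle of a gene lie at least 1 log2 unit apart for every gene shown, while the blue MDA-MB-231 symbols mostly lie close together.

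Transcript clusters of miRNA genes read the primary or hairpin transcript, not a mature arm, and the loci named here were chosen after their values were seen. Of 173 miRNA loci with a cluster of their own, 14 were called higher (8.09%) and 4 lower (2.31%), against 8.32% and 7.36% of all symbols, and 149 of 173 lay under the array median on all 4 arrays. The loci that changed most are shown with their mature RNAs from RefSeq (GRCh38.p14), the seed at bases 2 to 8 in capitals:
hsa-miR-100-5p: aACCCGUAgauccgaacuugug
hsa-let-7a-5p: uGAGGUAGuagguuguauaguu
hsa-miR-503-5p: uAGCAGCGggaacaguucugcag
hsa-miR-21-5p: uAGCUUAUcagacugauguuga
hsa-miR-221-3p: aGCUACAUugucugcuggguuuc
hsa-miR-27a-3p: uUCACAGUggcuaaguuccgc
hsa-miR-23a-3p: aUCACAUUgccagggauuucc
No seed is shared among these 7. MIRLET7A2 read 4.45 and 4.48 on the MDA-MB-231 arrays and 5.60 and 5.98 on the 231BoM-1833 arrays, a log2 change of 1.32 ± 0.16 (adjusted p = 0.0011), and MIR100, its neighbour in 1 host transcript, read 4.85 and 4.03 on the MDA-MB-231 arrays and 5.32 and 6.56 on the 231BoM-1833 arrays. MIR100 was called at 1.5 ± 0.36, with an adjusted p of 0.18 without MDA-MB-231 replicate 2 and 0.075 without 231BoM-1833 replicate 2. MIR21 read 8.86 and 8.50 on the MDA-MB-231 arrays and 9.52 and 9.78 on the 231BoM-1833 arrays, a log2 change of 0.97 ± 0.15 (adjusted p = 0.0037), and MIR221 read 6.78 and 6.70 on the MDA-MB-231 arrays and 7.56 and 7.83 on the 231BoM-1833 arrays, a log2 change of 0.96 ± 0.12 (adjusted p = 0.0014). MIR503 read 7.30 and 6.91 on the MDA-MB-231 arrays and 8.01 and 9.02 on the 231BoM-1833 arrays and was called at 1.42 ± 0.27 (adjusted p 0.093 without MDA-MB-231 replicate 2), while its host transcript MIR503HG rose by 1.22 with its call kept (8.43 and 8.13 against 9.24 and 9.75). MIR27A and MIR23A, which lie in 1 cluster, were called at 0.91 ± 0.24 and 0.76 ± 0.20. Their adjusted p was 0.11 without MDA-MB-231 replicate 1, 0.17 without MDA-MB-231 replicate 2 and 0.093 without 231BoM-1833 replicate 2 for MIR27A, and 0.16 without MDA-MB-231 replicate 1, 0.11 without MDA-MB-231 replicate 2 and 0.098 without 231BoM-1833 replicate 2 for MIR23A.

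Other small RNA genes, also chosen after their values were seen, differed by class. Of 175 small nucleolar RNA genes 18 were called higher (10.3%) and 14 lower (8.0%). Of 20 small nuclear RNA genes 9 were called higher and 0 lower, against 8.61% and 7.57% of 16901 protein-coding genes, and of 634 long non-coding RNAs 14 were higher and 35 lower. RNU5E-1, a U5 spliceosomal RNA, read 7.87 and 8.0 on the MDA-MB-231 arrays and 9.53 and 9.04 on the 231BoM-1833 arrays, a log2 change of 1.35 ± 0.17 (adjusted p = 0.0015). Of 20 SNORD116 genes, tandem copies of a box C/D small nucleolar RNA, 5 were called higher and 0 lower. SNORD116-14 read 3.05 and 3.17 on the MDA-MB-231 arrays and 5.62 and 5.31 on the 231BoM-1833 arrays, a log2 change of 2.36 ± 0.13 (adjusted p = 1.5e-05), and SNORD116-20 read 3.41 and 3.61 on the MDA-MB-231 arrays and 5.58 and 5.70 on the 231BoM-1833 arrays, a log2 change of 2.13 ± 0.14 (adjusted p = 4.5e-05). All 20 lay between 2.85 and 4.21 in MDA-MB-231, at the dim end of the arrays, and tandem or dispersed copies may share probes.

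Called genes also lay side by side, and whether they did so more often than their call rate alone would give was not tested. In the gene order of RefSeq (assembly GRCh38.p14), 10084 measured genes with a mean above 7 gave 27 runs of at least 4 neighbours all called in 1 direction, 17 higher and 10 lower, with 138 genes in all. The longest was a run of 8 lower genes, GLG1, RFWD3, MLKL, WDR59, ZNRF1, ZFP1, BCAR1 and CFDP1, with changes from -1.09 to -0.44. MLKL, the executor of necroptosis, read 9.62 and 9.52 on the MDA-MB-231 arrays and 8.56 and 8.39 on the 231BoM-1833 arrays, a log2 change of -1.09 ± 0.11 (adjusted p = 0.00045), and CFDP1 changed by -0.99 ± 0.12. The next had 7 higher genes each. One held MAGED2, APEX2, PAGE5, MAGEH1, RRAGB, UBQLN2 and ZXDB (0.38 to 1.13), another TP53BP2, FBXO28, DEGS1, NVL, CNIH4, WDR26 and LBR (0.39 to 0.75) and the third UPRT, PBDC1, MAGEE1, ATRX, MAGT1, COX7B and ATP7A (0.70 to 1.08). ATRX, a chromatin remodeller, read 8.34 and 8.20 on the MDA-MB-231 arrays and 9.08 and 9.07 on the 231BoM-1833 arrays, a log2 change of 0.80 ± 0.11 (adjusted p = 0.0019), and the copper pump ATP7A changed by 0.95 ± 0.11. Of the genes in these 4 runs, 2 of 8, 3 of 7, 2 of 7 and 5 of 7 kept their call in every setting. Among the runs of 4 genes, a lower one held COL4A1 and COL4A2 and a higher one held PTGS2 and PLA2G4A, which are counted singly in their lists. The ordered genes are mostly bright ones, which were called more often than all symbols. In the brightest of the 4 equal parts by level, 12.5% of symbols were called higher and 10.4% lower. In the next part the shares were 10.1% and 10.5%, against 8.32% and 7.36% of all symbols. The number of runs therefore has no background to be set against. No DNA copy number was measured.

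The bone-selected and the brain-selected derivative were set against each other in the direct contrast of 231BoM-1833 and 231BrM-2a from the same fit, which shares the 231BoM-1833 arrays with the comparison above. OTULINL was 2.71 ± 0.17 higher in 231BoM-1833 than in 231BrM-2a (adjusted p = 8.5e-06), THBS2 2.02 ± 0.11 (adjusted p = 4e-06), HLA-DPA1 3.34 ± 0.12 (adjusted p = 5.2e-07) and FGF5 3.36 ± 0.25 (adjusted p = 2.5e-05). EHF was 6.10 ± 0.11 higher and dim in 231BrM-2a (4.71 and 4.77). Other risers were not higher than in 231BrM-2a. MATN2 differed by -0.34 ± 0.10 (adjusted p = 0.038), TNFSF10 by -0.55 ± 0.14 (adjusted p = 0.019) and MYO1D by -0.60 ± 0.10 (adjusted p = 0.0029). LCP1 was -3.93 ± 0.24 in this contrast, with 12.99 and 13.06 on the 231BrM-2a arrays. For BST2 (0.04 ± 0.12) and IL18 (-0.08 ± 0.14) the difference between the derivatives did not pass the test. Among the fallers, GPR176 was -2.15 ± 0.11 and TIMP4 -1.79 ± 0.11, lower than in 231BrM-2a, whereas HSD17B2 (-0.02 ± 0.15), XAGE2 (-0.20 ± 0.13) and LTBP1 (-0.16 ± 0.14) did not differ beyond the threshold.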

How the data were processed

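Affymetrix whole-transcript gene arrays measured the RNA of the sorted cells, with 2 arrays for each of 3 lines. The deposited values are log2 expression values, and the submitters' processing notes name RMA and Affymetrix Expression Console as the tools the authors used, with no version. Symbols came from the platform annotation: 19461 of 33297 transcript clusters have 1 symbol, 1753 have several and 12083 have none. A symbol stands for its cluster with the highest mean over the 6 arrays, and 769 symbols lie on several clusters.

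The log2 values were fitted as deposited by lmFit and eBayes of limma (version 3.58.1, under R 4.3.3), with all 6 arrays and 1 mean a line, two-sided and adjusted by the Benjamini-Hochberg method over 21214 clusters with a symbol. The script was tested on simulated data. Named genes are the 15 highest and 15 lowest, up to 6 called members of each list by size, head genes of pathways, gained and lost genes, genes that differ between the 231BoM-1833 arrays, and the longest runs of neighbours. Genes from clusters with several symbols were left out of the 15 highest and lowest. Small RNA genes, the sort markers and the cell cycle roles were added after their values were seen. The members and lists were chosen with earlier results of these data known. No column of another sample was found in the value table.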

Additional observations from a re-analysis of the deposited data

Results flagged for a closer look

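Among the 30 genes with the largest changes, 11 were called in opposite directions in the 2 derivatives when each was set against MDA-MB-231, so these were listed for a closer look. The values below are the tested difference, 231BoM-1833 minus 231BrM-2a, from the same limma fit on the log2 scale, and both comparisons share the MDA-MB-231 arrays. Higher in 231BoM-1833 were the cytokine IL24 (5.54), the decoy receptor IL13RA2 (5.23), the mucin MUC15 (4.37), the cytokine IL1B (3.94) and the cancer-testis antigen MAGEC2 (3.31). Lower in 231BoM-1833 were the protocadherin PCDHB2 (-2.38), the formin DAAM2 (-2.47), the zinc finger factor ZBTB16 (-2.74), the orphan receptor GPRC5B (-2.82), the monoamine oxidase MAOA (-3.09) and the interleukin 7 receptor IL7R (-3.26).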

How the results depend on the processing

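With clusters that lack a symbol tested too, 1630 clusters were called in place of 3354, with 850 symbols higher and 559 lower. List memberships, in which a gene of several lists is counted once, then numbered 201 in place of 333. Leaving out 1 array at a time gave 932 to 2936 called clusters, 504 to 1320 symbols higher, 275 to 1209 lower, 46 to 75 at least 2-fold lower and 135 to 318 list memberships. Without MDA-MB-231 replicate 1 the first 3 counts were 1325, 766 and 362. The lowest of each count came without MDA-MB-231 replicate 2, except the 46, without 231BoM-1833 replicate 2, and the 75 came without 231BoM-1833 replicate 1. With the replicate block 2724 clusters were called, 1339 symbols higher and 995 lower. Differences between replicates correlated at 0.036, -0.162 and -0.165 between lines. These values cannot show whether arrays of the same replicate number shared a batch or a sort, and the labels do not say. With limits at the 40th and 80th percentile 2 genes were gained and 0 lost. Of 3443 values for 290 called named genes under the alternatives, 488 lost the call and 0 reversed. Of these genes, 145 kept it in every setting that gave them a value. Of 34 named genes not called, 20 were called under some alternative. Among them, TNFAIP3 changed by 0.0016 with all arrays and was called in opposite directions without 231BoM-1833 replicate 1 (-0.56) and replicate 2 (0.57). Of the 12 settings, the 3 that fit only the 4 arrays or drop a 231BrM-2a array are 1 fit. Where an array of a compared line is left out, the lone array is assumed to vary like the other lines. The cause of these shifts was not tested.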
